A study of Rattus norvegicus with 4 samples.

Results

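The genes described here were 9 genes of the oligodendrocyte and its myelin, Mbp, Mog, Mag, Mobp, Cnp, Cldn11, Olig1, Sox10 and Ugt8, measured in rat hippocampus after voluntary wheel running. They were found by name: every probe whose accession resolved to one of these symbols was kept, which gave 13 of the 41012 probes on the array and 9 of the 8893 genes that could be named. Mbp, Mog, Mobp and Ugt8 had 2 probes each and the other 5 genes had 1. The rule used no measured value, but the 9 genes were chosen with earlier results of these data known. The same holds for the gene lists set beside them below, so the counts that follow are not independent of that knowledge.

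The animals were male Wistar rats, 10 weeks old at the start, in 3 groups: sedentary rats in standard cages (10 rats), rats with a freely turning wheel (WR, 8 rats), and rats with a wheel whose resistance was raised to 30% of body weight (RWR, 8 rats). Running lasted 4 weeks. RNA was pooled within each group before labelling with the dyes Cy3 and Cy5, and each running pool was set against the sedentary pool on 2 chips with the dyes exchanged, chips 1 and 2 for WR and chips 3 and 4 for RWR. The methods describe equal amounts of RNA from each replicate, in a total that covers fewer replicates than a group had rats, so a pool need not hold every rat, and which rats it held is not given in the sources used here. That 1 sedentary pool served on all 4 chips is an assumption. The chips of a pair therefore repeat the labelling and hybridisation of 1 pool, each group counts as 1 biological replicate, and no test between conditions could be made. The spread between rats is not in these data, and both comparisons have sedentary RNA as their other side.

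Oligodendrocytes are the glial cells that wrap axons of the central nervous system in myelin, a stack of lipid-rich membrane that speeds conduction. Sox10 and Olig1 are transcription factors of the lineage, and Sox10 acts directly on many myelin genes. The myelin genes themselves code for proteins that compact the membrane (Mbp, Mobp), lie on its outer or axon-facing surface (Mog, Mag), keep its cytoplasmic channels open (Cnp), seal its layers (Cldn11) or make its characteristic lipid (Ugt8).

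A log2 ratio below was always running over sedentary, turned for the dye exchange, so that a negative value means a lower signal in the running pool. Its error was the standard error (SE) that Feature Extraction's error model gives for the mean of the pair; it describes the measurement on the chips and not the rats. Over all probes the turned ratios of a pair ran against each other (Pearson's r -0.761 for chips 1 and 2 and -0.686 for chips 3 and 4), while chips of the same dye orientation ran together (0.712 for chips 1 and 3 and 0.700 for chips 2 and 4). A part of each single-chip ratio therefore followed the dye, and the mean of the pair, in which a dye effect cancels, was used throughout. Between 67.5% and 82.5% of spots were well above background in the sedentary pool and between 69.0% and 77.9% in the running pools, and 0 spots were saturated. Of the 13 probes, 11, covering 8 genes, were well above background in both pools on all 4 chips. The exceptions were both probes of Ugt8.

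No probe of any of the 9 genes passed the rule for a changed gene in either running group. A probe was called when each chip of its pair put it above 1.5-fold, or each below 0.75-fold, and each deposited p-value was under 0.01. The rule called 0 of the 13 probes in WR, where 0.0317% of all probes were called, and 0 of 13 in RWR, where 0.0585% were called. Without the p-value it also called 0 of 13 in each comparison, beside 0.549% and 1.48% of all probes. At these shares a count of 0 among 13 probes is close to the background.

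Most pair means lay below 0, and fewer probes were below 0 on both chips. In WR the mean ratio lay below 0 at 11 of the 11 probes well above background, beside 48.4% of all such probes, and it ranged from -0.19 to -0.036 with a median of -0.080, which is 5.40% lower. In RWR it lay below 0 at 10 of 11 probes, beside 47.8%, and ranged from -0.27 to 0.0056 with a median of -0.081, or 5.47% lower. Both chips of the pair were below 0 at 7 probes in WR and at 6 in RWR, beside 13.8% and 15.4% of all such probes, and no probe was above 0 on both. Without chip 1, the median over all 9 genes in WR was -0.13, against -0.075 with both chips. With each gene represented by its brightest probe, 8 of 8 genes lay below 0 in WR and 7 of 8 in RWR, beside 49.6% and 50% of all named genes well above background. Of these genes 4 of 8 in WR and 3 of 8 in RWR were below 0 on both chips, beside 15.2% and 16.3%. The background shares, for probes and for genes, cover those well above background on that pair alone. By that filter Ugt8 also counts in RWR, where 8 of 9 genes then lay below 0 on the mean and 3 of 9 on both chips. On a single chip, 6 or 7 of all 9 genes lay below 0 in WR and 6 of 9 on either chip in RWR. Each single ratio was small against its own error: the SE lay between 0.144 and 0.146, the mean exceeded 1 SE at 2 probes in WR and 3 in RWR, and the most distant probe stood 1.31 SE from 0 in WR and 1.83 SE in RWR. If the sedentary pool was the same on all 4 chips, as assumed, the comparisons are not independent repeats of each other. In bulk tissue, fewer oligodendrocytes and less of these RNAs in each oligodendrocyte cannot be told apart.

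The members are bright, so they were also set beside genes at least as bright as the dimmest of the 8 (3004 named genes, a background chosen after the values were seen). The lowest 25% of those genes had mean ratios at or below -0.038 in WR and -0.043 in RWR. Of the members, 8 of 8 lay in that lowest 25% in WR and 5 of 8 in RWR, and 0 of 8 lay in the highest 25% in either comparison.

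**Figure D1:**
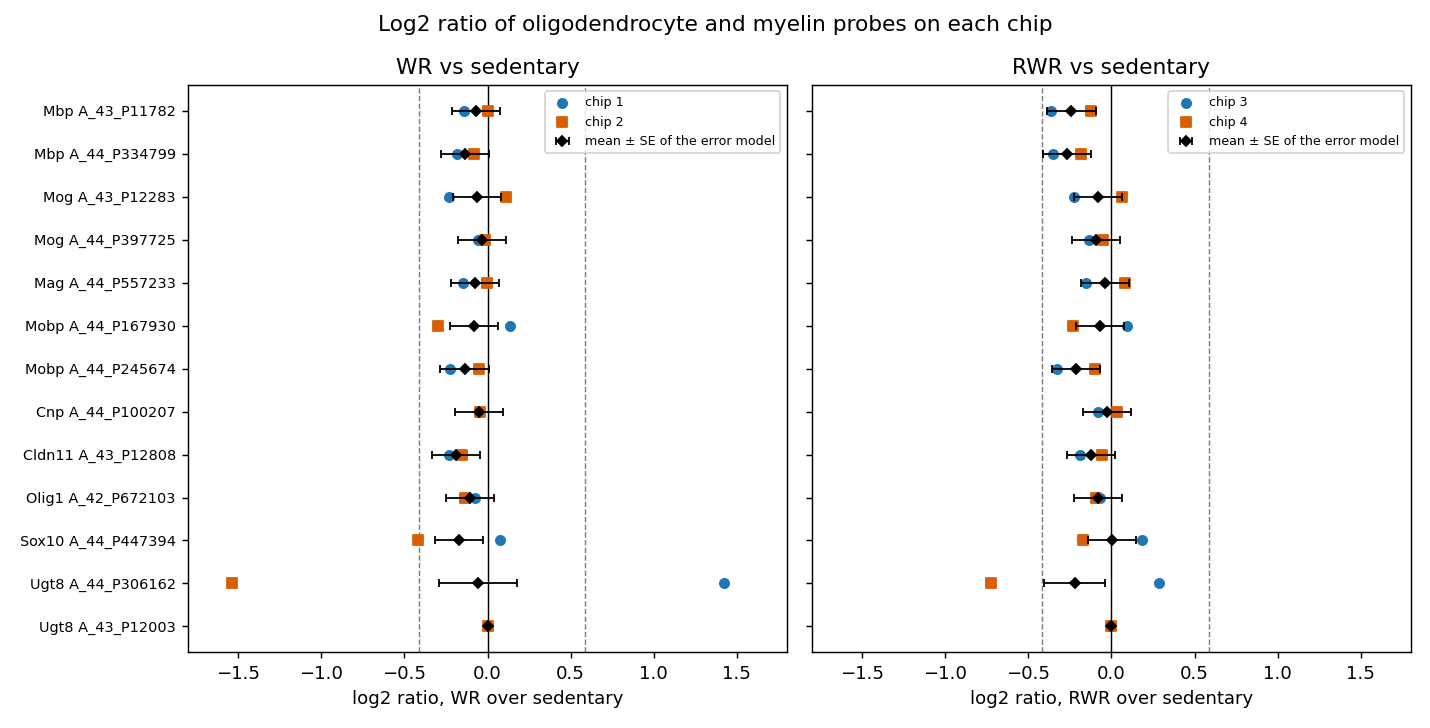
Log2 ratio of running over sedentary (horizontal axis) for each of the 13 probes, WR on the left and RWR on the right. Circles and squares are the 2 dye-exchanged chips, diamonds their mean with the SE of the error model, and dashed lines the cutoffs of 1.5-fold and 0.75-fold. At the 11 probes well above background the means lie between -0.19 and -0.036 in WR and between -0.27 and 0.0056 in RWR. Ugt8 A_43_P12003, listed at a ratio of 0, has no error bar.

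Mbp, myelin basic protein, holds the cytoplasmic faces of compact myelin together, and in RWR its probes had the lowest mean ratios of the set. On probe A_43_P11782 the processed signal (arbitrary units, comparable only within a chip) was 11895 in the sedentary and 10763 in the WR pool on chip 1, and 9749.8 and 9753 on chip 2. It was 12538 in the sedentary and 9755 in the RWR pool on chip 3, and 9603 and 8835 on chip 4. The running pool was thus the lower on 3 of the 4 chips, and level with the sedentary pool on chip 2. The mean ratio was -0.072 ± 0.14 (SE) in WR and -0.24 ± 0.15 in RWR, the latter 15.4% lower. The other probe, A_44_P334799, read lower in the running pool on every chip, with ratios of -0.19 and -0.084 in WR and -0.35 and -0.18 in RWR. Its means were -0.14 ± 0.14 and -0.27 ± 0.15, the RWR value being 16.8% lower. Both Mbp probes had the same order of the groups, RWR below WR below sedentary, with every mean within 2 SE of 0.

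Mobp, a small protein of compact myelin, was read by 2 probes that differed on single chips. On A_44_P167930, the brighter, the ratio was 0.14 on chip 1 and -0.30 on chip 2, and 0.092 on chip 3 and -0.23 on chip 4, so its sign followed the dye. The means were -0.080 ± 0.15 in WR and -0.069 ± 0.14 in RWR. On A_44_P245674 all 4 ratios were negative, -0.22 and -0.053 in WR and -0.33 and -0.098 in RWR, with means of -0.14 ± 0.14 and -0.21 ± 0.15, the latter 13.7% lower. The probes had mean ratios of the same sign in both comparisons and differed in size.

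Mog and Mag code for membrane glycoproteins, Mog on the outermost face of the sheath and Mag on the face that touches the axon. Mog A_43_P12283 gave 2523 in the sedentary and 2151 in the WR pool on chip 1 but 2072 and 2233 on chip 2. On chips 3 and 4 it gave 2627 and 2014 in the sedentary pool and 2243 and 2107 in the RWR pool. In each comparison the running pool was thus the lower on 1 chip and the higher on the other, and the means were -0.061 ± 0.14 in WR and -0.081 ± 0.14 in RWR. Mog A_44_P397725 was below 0 on all 4 chips by small amounts, with means of -0.036 ± 0.14 and -0.092 ± 0.14. Mag A_44_P557233 gave ratios of -0.15 and -0.00018 in WR and of -0.16 and 0.079 in RWR. Its means were -0.075 ± 0.14 and -0.038 ± 0.14, each well inside 1 SE.

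Cnp, an enzyme of non-compact myelin, had the smallest ratios of the myelin proteins in RWR. Probe A_44_P100207 gave ratios of -0.054 and -0.048 in WR and -0.080 and 0.031 in RWR, with means of -0.051 ± 0.14 and -0.024 ± 0.14. Cldn11, the claudin that forms the tight junctions of central myelin, had the lowest mean of the set in WR. Its signal was 594 in the sedentary and 506 in the WR pool on chip 1, and 542 and 488 on chip 2. On chips 3 and 4 the sedentary pool gave 634 and 551 and the RWR pool 555 and 529. The running pool was the lower on all 4 chips, and the means were -0.19 ± 0.15 in WR, 12.4% lower, and -0.13 ± 0.15 in RWR, 8.31% lower. The RWR mean was -0.069 without background correction and -0.074 with normexp.

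The upstream sequences of Mag and Cnp are shown because Sox10 binds short motifs close to ACAAAG, and these genes hold that motif once each. The RefSeq promoter table, on the build GRCr8, held 6 of the 9 members (all except Mog, Olig1 and Sox10). Each line gives the 250 bases before the start site, 5′ to 3′ on the gene's strand. Mag lies at chr1:95291045-95291294 on the minus strand and Cnp at chr10:86011254-86011503 on the plus strand. Capitals mark ACAAAG, searched on both strands (CTTTGT where it lies on the other strand), and CANNTG, the motif of the basic helix-loop-helix family to which Olig1 belongs.
Mag: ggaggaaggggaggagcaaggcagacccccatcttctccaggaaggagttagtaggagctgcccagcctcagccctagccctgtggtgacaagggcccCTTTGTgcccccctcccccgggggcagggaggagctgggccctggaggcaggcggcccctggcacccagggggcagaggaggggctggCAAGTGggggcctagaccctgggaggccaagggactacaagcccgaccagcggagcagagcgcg
Cnp: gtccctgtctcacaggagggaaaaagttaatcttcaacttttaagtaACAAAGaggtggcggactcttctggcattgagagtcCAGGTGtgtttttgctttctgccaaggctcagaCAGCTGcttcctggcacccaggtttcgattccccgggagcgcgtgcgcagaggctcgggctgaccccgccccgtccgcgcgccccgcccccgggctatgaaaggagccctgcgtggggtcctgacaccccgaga
ACAAAG began 152 bases before the start site in Mag and 203 bases before it in Cnp, and the matches overlapped no other motif. In all, 4 of the 6 members in the table held ACAAAG (Mobp, Mag, Cnp and, in 1 of its 2 entries, Mbp), while Cldn11 and Ugt8 did not. Of all 33469 promoter entries of that length 16.3% held ACAAAG and 65.5% held CANNTG, counted by entry and not by gene as the members were. CANNTG was found for Mag, Mobp, Cnp and 1 of the 2 entries of Mbp. A further motif, ACAATG, was searched and occurred in 11.1% of all entries. Among the members it was found only in 1 entry of Mbp. A match is a stretch of letters and not a measured binding site, and the arrays did not measure binding.

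Olig1 and Sox10, the transcription factors, differed in how evenly they read across chips. Olig1 A_42_P672103 gave signals of 6681 and 6292 in the sedentary and 6353 and 5735 in the WR pool on chips 1 and 2. On chips 3 and 4 it gave 7231 and 6313 in the sedentary and 6893 and 5926 in the RWR pool. The running pool was the lower on every chip, by ratios that lay between -0.13 and -0.069, and the means were -0.10 ± 0.14 in WR and -0.080 ± 0.14 in RWR. Sox10 A_44_P447394 gave 2442 in the sedentary and 2572 in the WR pool on chip 1, but 2460.02 and 1842 on chip 2, where the deposited p-value of 0.0442 was the lowest of the 11 probes in WR. On chips 3 and 4 it gave 2504 and 2567 in the sedentary and 2843 and 2279 in the RWR pool. The Sox10 ratio was thus positive with the running pool in Cy5 and negative with it in Cy3 in both comparisons. The means were -0.17 ± 0.15 in WR and 0.0056 ± 0.14 in RWR, the only mean above 0 among the 11 probes. The RWR mean turned to -0.0017 without background correction and to -0.00051 with normexp.

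Ugt8, the enzyme that makes galactosylceramide, the main glycolipid of myelin, was dim. On A_44_P306162 the sedentary pool gave 26.1 and the WR pool 69.8 on chip 1, and 82.7 and 28.5 on chip 2. Each of those pools was well above background on only 1 of its 2 chips, the one where it was in Cy5. The ratios of 1.42 and -1.54 nearly cancelled, leaving a mean of -0.058 ± 0.24. In RWR both pools were well above background on both chips, with 69.8 and 76.6 in the sedentary and 85.1 and 46.2 in the RWR pool. The ratios were 0.28 and -0.73, with a mean of -0.22 ± 0.18. Without background correction the mean was -0.13 in WR and 0.019 in RWR, and with normexp it was -0.41 and 0.026, so its direction in RWR depended on that step. The second probe, A_43_P12003, was not well above background in any pool on any chip, and no fold is given for it.

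**Figure D2:**
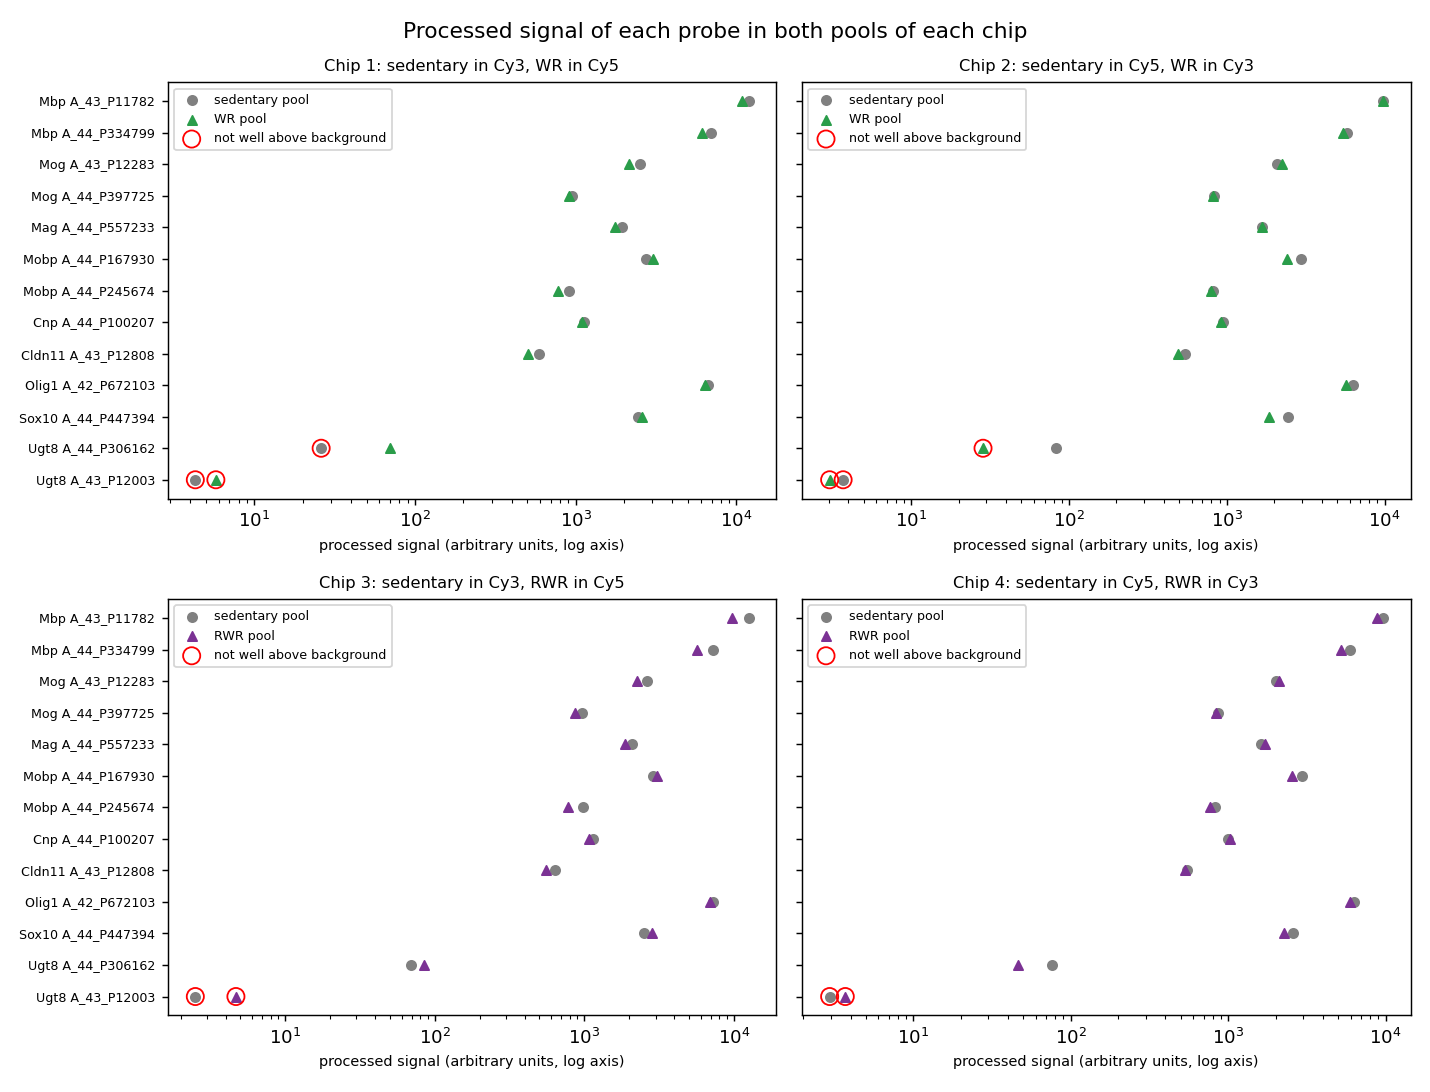
Processed signal (log axis, arbitrary units) of each of the 13 probes in the sedentary pool (grey circles) and the running pool (triangles), 1 panel per chip; red rings mark signals not well above background. The pools nearly coincide at most probes, Sox10 on chip 2 and the Mbp probes on chip 3 are the most separated among the bright ones, and the rings fall on Ugt8 alone.

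WR and RWR were set against each other between chips of the same dye orientation, where the dye effect cancels and the sedentary pool is assumed to be shared. Among the 11 probes, 4 had a lower ratio in RWR in both orientations and 3 a higher one, with a median difference of 0.011. Of 5926 named genes well above background, counted by gene and not by probe, 29.7% were lower in RWR in both orientations and 1690 were higher, so the members showed no common direction here. With each gene represented by its brightest probe, Ugt8 included, the median difference was 0.023. It was 0.079 on chips 2 and 4 alone, -0.0067 on chips 1 and 3 alone and -0.000091 with normexp, so its sign was not settled. The 4 lower probes were both Mbp probes (mean differences of -0.17 and -0.13), Mobp A_44_P245674 (-0.074) and Mog A_44_P397725 (-0.056). The 3 higher were Sox10 (0.18), Cldn11 (0.066) and Olig1 (0.023). Mbp and Sox10 were therefore the ends of the set, Mbp being -0.22 and -0.12 and Sox10 0.11 and 0.25 in the Cy5 and Cy3 orientation. No test of these differences was possible.

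**Figure D3:**
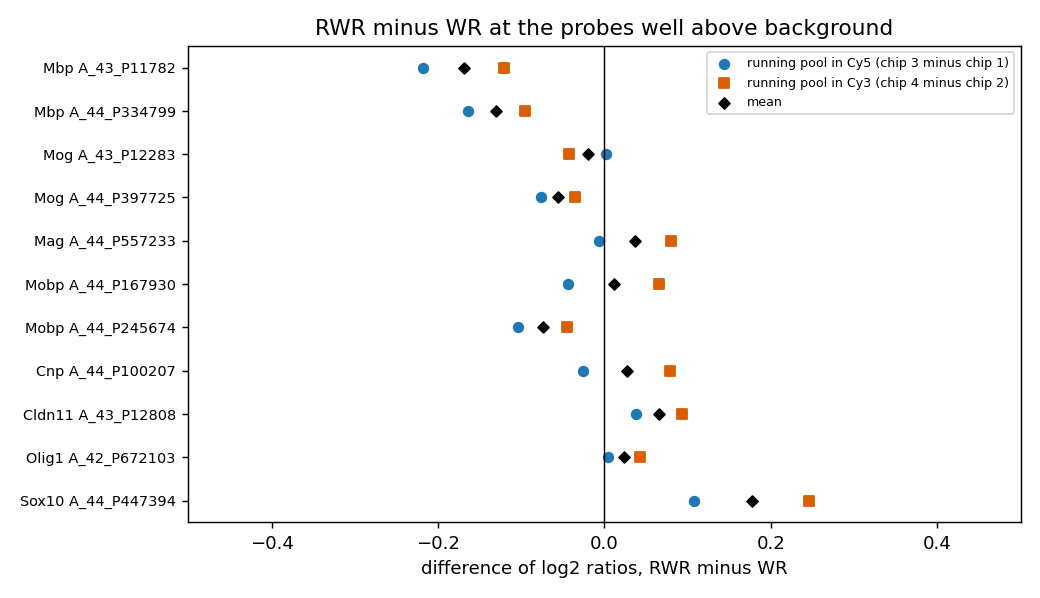
Difference of log2 ratios, RWR minus WR (horizontal axis), at the 11 probes well above background, with the running pools in Cy5 (circles) and in Cy3 (squares) and their mean (diamonds). Both Mbp probes lie below 0 in both orientations and Sox10 lies above 0 in both.

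Other genes listed as oligodendrocyte genes, 35 of which 22 could be matched to a probe, mostly also lay slightly below 0. Whether each gene of that list is particular to oligodendrocytes was not tested. All 22 were well above background, and 0 of 22 were called in either comparison. The median was -0.085 in WR, with 20 of 22 means below 0, and -0.074 in RWR, again with 20 of 22. Both chips were below 0 for 12 genes in WR and 11 in RWR, beside 15.2% and 16.3% of all named genes well above background, and 0 were above 0 on both, beside 14.7% and 15.8%. Of the 18 that were as bright as the members, 14 lay in the lowest 25% of bright genes in each comparison, and 1 in WR and 0 in RWR lay in the highest 25%. Without chip 1 their WR median, over all 22, was -0.056, and without chip 4 their RWR median was -0.13.

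By the brightest probe of each gene, the lowest of them in WR were Cryab, a small heat-shock protein abundant in oligodendrocytes, at -0.26 ± 0.15, Plekhb1 at -0.17 ± 0.14, and Mal, a proteolipid of myelin, at -0.16 ± 0.15. In RWR they were Mal at -0.29 ± 0.15, Cryab at -0.24 ± 0.15 and Hapln2, a link protein at nodes of Ranvier, at -0.24 ± 0.15. Cryab was negative on every chip, from -0.31 to -0.20. The other values rested unevenly on the chips: Hapln2 in RWR was -0.48 on chip 3 and -0.012 on chip 4, Mal was -0.31 and -0.011 in WR and -0.43 and -0.14 in RWR, and only Plekhb1, at -0.16 and -0.18 in WR, was even. A dimmer probe of Hapln2 gave -0.40 and -0.087 in RWR. The probes of Lpar1, a receptor for lysophosphatidic acid, differed in WR. Its brightest probe had a mean of -0.086, and dimmer ones -0.23 (chips -0.44 and -0.029) and -0.027 (chips -0.10 and 0.048). A dimmer probe of Opalin had a mean of 0.014 in WR.

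Marker lists of other hippocampal cell types are given beside these values, and their part in the result was not tested. The neuron list (11 genes) had a median of 0.039 in WR and -0.0075 in RWR, and the astrocyte list (10 genes) 0.00040 and 0.0031. The microglia list (9 genes) had medians of 0.028 and 0.12. In WR 3 of 9 genes were above 0 on both chips, beside 14.7% of all named genes well above background. The count in RWR was 5 of 9, beside 15.8%. In RWR 2 of 9, Itgam and Csf1r, were below 0 on both. No gene of these 3 lists was called. The endothelial list (3 genes) had medians of 0.0054 and -0.012. Of 8 genes of oligodendrocyte precursors only Cspg4 could be matched, with ratios of -0.41 and 0.58 in WR and -0.42 and 0.58 in RWR, so that its sign followed the dye. Of the choroid plexus list 2 genes in WR and 3 in RWR were well above background, with medians of -0.54 and 0.12. Of the Schwann cell list, which marks peripheral myelin, Prx was not well above background in both pools on both chips of either pair, and Pmp22 had mean ratios of 0.010 in WR and -0.0059 in RWR. The summed signal of the 9 members' representing probes was 30002 in the sedentary and 28293 in the WR pool on chip 1, and 26755 and 25060.2 on chip 2. On chips 3 and 4 it was 31674 and 26718 in the sedentary and 28360.3 and 24993 in the RWR pool. The sum is weighted to the brightest probes, and on chips 1 and 3 most of its difference came from Mbp. The neuron list summed to 84756 in the sedentary and 92539 in the WR pool on chip 1, 79327 and 78893 on chip 2, and on chips 3 and 4 to 89226 and 78328 in the sedentary and 94018 and 79759 in the RWR pool. That sum is weighted to bright probes as well, and on chips 1 and 3 most of its difference came from Snap25. The sign of the Snap25 ratio followed the dye, at 0.22 and -0.091 in WR and 0.20 and -0.035 in RWR.

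**Figure D4:**
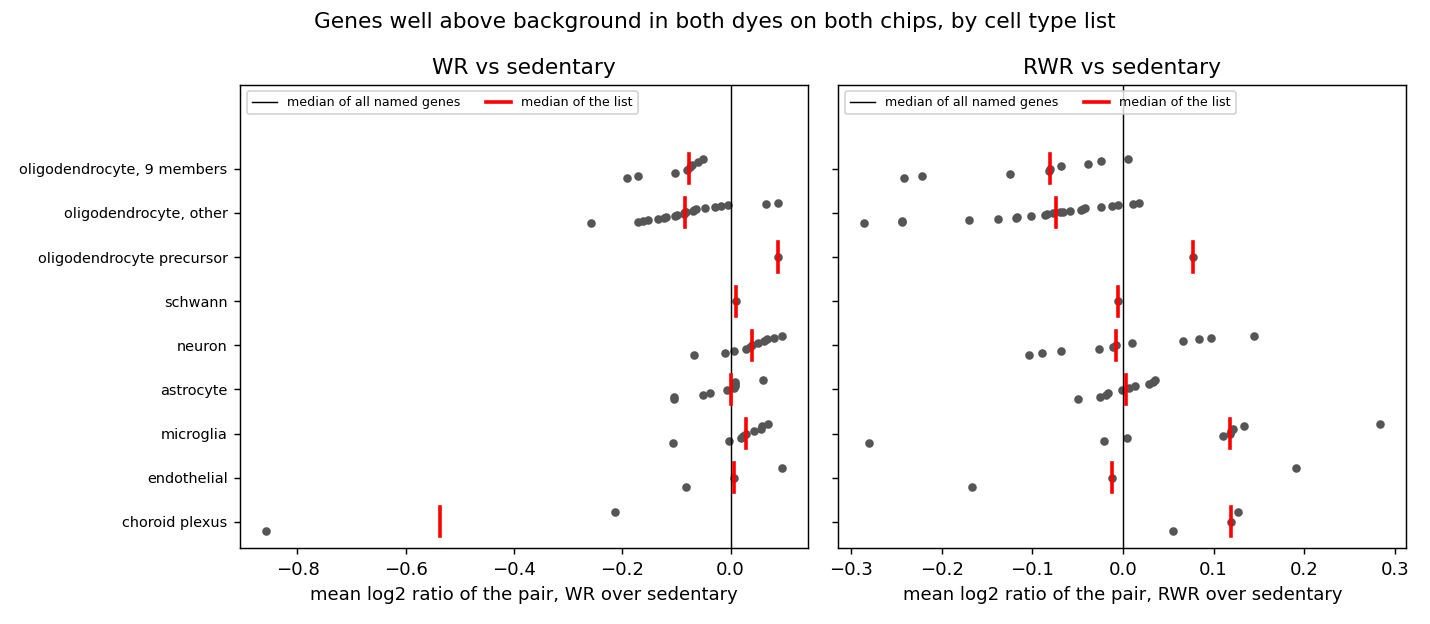
Mean log2 ratio of each gene well above background (points) by cell type list, WR on the left and RWR on the right (axes differ in range), with the list's median as a red bar and the median of all named genes as a black line. Both oligodendrocyte lists have medians between -0.085 and -0.074, while neuron and astrocyte lists have medians between -0.0075 and 0.039. Other lists also lie off 0: microglia has medians of 0.028 in WR and 0.12 in RWR, and the few choroid plexus genes -0.54 and 0.12.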

How the data were processed

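Hippocampal RNA pooled by the authors within group was hybridised to 4 chips of 1 slide of a 2-colour 60-mer rat array. The deposited scanner files (Feature Extraction 11.0.1.1) hold processed signal intensities, background-subtracted and LOWESS dye-normalized, median intensities of spot and local background, a deposited log10 ratio of Cy5 over Cy3 with its error, and a deposited p-value per spot from the error model of 1 chip. A deposited value table holds the same log10 ratios. Here ratios were turned to running over sedentary, converted to log2, averaged over spots of a probe and over the pair. Control spots and outlier-flagged spots were left out. SE was the square root of the summed squared errors divided by the number of chips. Probes were named by accession through the RefSeq gene table (10759 probes). A gene was represented by its brightest probe. Other probes are given for the 9 members, and for other genes the brightest probe was used. The exceptions are dimmer probes of Hapln2, Lpar1 and Opalin, named after their values were seen. Of other lists, called genes and, for other oligodendrocyte genes, up to 3 per direction and comparison of 1 sign on both chips were named. Cspg4, Prx, Pmp22, Itgam and Csf1r were named after their values were seen. Some genes of the lists are not reported here by name. Calls used the fold cutoffs and p-value threshold of the methods. Alternatives were the p-value filter, normexp (offset 50) or no background correction with loess in limma 3.58.1 (R 4.3.3), median centring, the value table, a dim-probe filter, symmetric cutoffs, averaging the probes of a gene, and leaving out each chip. The number of chips limits the precision. Computation used Python 3.11.15, numpy 2.4.6 and pandas 2.3.3. Members and lists were chosen with earlier results of these data known.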

Additional observations from a re-analysis of the deposited data

Results flagged for a closer look

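Ttr, the thyroid hormone carrier made by the choroid plexus, is from a cell type list and not among the 9 genes. Its ratios had opposite signs in the running groups, on both chips of each pair. The ratios were -0.72 and -0.99 in WR, where it was called lower, and 0.20 and 0.042 in RWR (mean 0.12 ± 0.14 SE, inside 1 SE of 0), a difference of 0.98. The difference was not tested, and 3.85% of all probes had opposite signs in this way. Only genes well above background in both pools on all 4 chips were considered here, a limit set after the values were seen.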

How the results depend on the processing

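No member passed the rule in either pair under any alternative that kept both chips. Every alternative with the p-value filter reused the deposited p-values, and averaging the probes did not enter this count. Only Ugt8 A_44_P306162 in WR had both p-values under 0.01, and its ratios had opposite signs. The absence of calls was thus largely fixed in advance and says little about the processing. With 1 chip left out, Ugt8 alone was called, 1 member in WR whichever chip was left out and 0 to 1 in RWR, where it was called without chip 3. The WR calls had opposite signs, 1.42 on chip 1 and -1.54 on chip 2. On each of these chips 1 of the 2 pools was not well above background. The median of the 9 genes stayed below 0 throughout. In RWR it was -0.080, became -0.062 without background correction and -0.063 with normexp, and lay between -0.091 and -0.080 with a chip left out. In WR it was -0.075 and lay between -0.13 (without chip 1) and -0.073 with a chip left out. The median of other oligodendrocyte genes lay between -0.097 and -0.056 in WR and between -0.13 (without chip 4) and -0.073 in RWR with a chip left out. The median of RWR minus WR was 0.023, -0.000091 with normexp, and between -0.0067 and 0.079 with a chip of each pair left out. Of 143 values of single genes under alternatives 15 changed sign. Of the 107 values that kept both chips 4 changed sign, and these were Sox10 and Ugt8 in RWR under either background alternative. All other changes of sign came with a chip left out, among far fewer values. The value table and the dim-probe filter return the same ratios and could change no sign. The Cnp value in WR moved to -0.065 without background correction and -0.057 with normexp. The cause was not tested. No paired analysis was possible because the chips of a pair share their pools and the replicate numbers only name chips. The SE describes 1 probe and not a median over several, so it cannot judge a shift shared by the members. That shift was not tested.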
